A study of Mus musculus with 2 samples.

Results

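The cyclic nucleotide phosphodiesterases described here were 10 genes taken by name from the count tables: Pde1a, Pde1b, Pde1c, Pde2a, Pde4a, Pde4b, Pde4d, Pde7b, Pde8b and Pde10a. They are 10 of 32531 gene symbols, and 14 other phosphodiesterase genes were read beside them. The RNA came from mice of line JX5852, called Stard5-EGFP/Rpl10a, whose ventral striatum was dissected. They were adult, untreated controls, in which a ribosomal protein fused to EGFP is made under Stard5 regulatory sequence. Tagged polysomes were pulled down with anti-EGFP antibodies (translating ribosome affinity purification, TRAP) and their RNA was sequenced as 2 libraries, replicates 1 and 2 of the only group. All mice carried the tag and came from 1 line. No unbound or input RNA was analysed here, so the values are levels in the pulled-down RNA and not enrichment over the tissue. Whether each replicate is a different mouse or pool is not in the labels, and the SDs below may therefore hold technical variation alone.

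Phosphodiesterases break down the second messengers cAMP and cGMP and so end the signals that receptors send through adenylyl and guanylyl cyclases. In spiny projection neurons of the striatum, cAMP carries dopamine and adenosine signals to protein kinase A, and PDE10A is the enzyme best known for opposing it there. The families differ in substrate and control: PDE1 is switched on by calcium and calmodulin, PDE2 is stimulated by cGMP, PDE10 hydrolyses both nucleotides, and PDE4, PDE7 and PDE8 act on cAMP alone.

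The libraries held 25830282 and 29574781 reads in genes, and 12374 genes reached 1 CPM (reads per 1000000 reads in genes) in both. All 13 markers of spiny projection neurons, the main cell type of this tissue, reached at least 10 CPM in each library, and 12 of them reached 100, led by Gnal at 2482 ± 281 CPM and Penk at 1468 ± 617 CPM (SD, n = 2). Markers of other cells were detected too. The 10 astrocyte markers had a summed level of 930 CPM (replicate 1) and 3061 CPM (replicate 2), with Slc1a2 at 741 and 2496 CPM and Aldoc at 80.8 and 225 CPM, and none was at 0. The 10 oligodendrocyte markers summed to 1016 and 1564 CPM, with Mbp at 281 and 374 CPM. The summed CPM of the other marker lists in replicates 1 and 2 was 94.9 and 194 for oligodendrocyte precursors (Vcan and Pdgfra highest), 190 and 140 for microglia (Ctss and Csf1r), and 28.4 and 32.3 for endothelial and mural cells (Rgs5 and Flt1). It was 88.8 and 119 for cholinergic interneurons (Slc5a7 and Lhx8), 106 and 160 for GABA interneurons (Sst and Lhx6, with Vip at 0 reads) and 17.3 and 37.7 for glutamatergic neurons (Slc17a6 and Tbr1, with Emx1 at 0 reads). In such bulk pulled-down RNA, fewer cells of a type and less RNA per cell cannot be told apart. With no input RNA analysed, RNA of tagged cells and RNA of untagged cells cannot be told apart either.

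The deposited data are reads per gene, with no sequence of their own, so the promoters of the members are shown only to place them in the genome. RefSeq (GRCm38.p6) promoter windows, each from 250 bases before a transcription start to 50 after it, were found for all 10 members, 31 windows in all. Pde10a, the member at the highest level, has windows at 2 annotated starts on the plus strand of chromosome 17. The annotated gene begins further upstream, at base 8525372, where no window lay. The outermost annotated ends of Pde1c, Pde4b, Pde4d and Pde7b at the 5' side also had no window. Of the 2 Pde10a windows, that of the upstream start was 71.3% G or C with 23 CpG dinucleotides. The window of the downstream start was 56.7% with 5, against medians of 52.7% and 7 over 32851 windows. The upstream stretch (chr17:8801495-8801692) stops where an annotated Pde10a exon begins, and the downstream stretch is chr17:8849735-8849984.
Pde10a upstream start: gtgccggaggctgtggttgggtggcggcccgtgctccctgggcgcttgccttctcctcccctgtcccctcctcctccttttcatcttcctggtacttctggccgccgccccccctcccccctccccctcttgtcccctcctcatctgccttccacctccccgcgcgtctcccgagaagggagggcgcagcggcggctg
Pde10a downstream start: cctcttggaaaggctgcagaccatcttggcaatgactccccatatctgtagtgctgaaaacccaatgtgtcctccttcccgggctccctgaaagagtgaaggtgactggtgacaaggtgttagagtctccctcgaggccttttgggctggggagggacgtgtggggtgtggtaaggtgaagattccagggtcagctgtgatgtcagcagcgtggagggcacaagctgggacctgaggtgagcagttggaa

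The windows were searched on both strands for the cAMP response element TGACGTCA, the motif of the cAMP-activated factor CREB, and for its core TGACG, which lies within the full element. No member window held the full element (0 of 31), against 1.79% of all windows. The core was in 5 of 31 member windows (16.1%), 1 each in Pde1a, Pde2a, Pde4a, Pde4b and Pde8b, against 20.8% of all windows. These matches are descriptions of letters, not of binding. The core is shown in capitals, on the reverse strand in both, for the Pde1a match (chr2:80039051-80039080, minus strand, 166 bases before the start) and the Pde4a match (chr9:21184039-21184068, plus strand, 50 bases before the start), neither of which lies in an annotated exon of its gene.
Pde1a: gtaacttcagccCGTCAttcctcagtaatt
Pde4a: ggcacagctcgaCGTCAggctggggaggag

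Pde10a, the dual-substrate enzyme characteristic of striatal spiny neurons, was the most abundant member in both libraries. It had 1973 CPM in replicate 1 (50961 reads, exact Poisson 95% interval 1956 to 1990) and 1877 CPM in replicate 2 (55521 reads, 1862 to 1893), a mean of 1925 ± 67.6 CPM (SD, n = 2). It ranked 23 of 12374 detected genes by CPM. Since long transcripts collect more reads, levels of different genes were compared as RPKM, CPM per kilobase of annotated exon. On that scale Pde10a stood at 154 and 146 RPKM, a mean of 150 ± 5.26 RPKM (SD, n = 2) and rank 105 of 11468 detected genes with a length. The gene (ENSMUSG00000023868.17) spans chr17:8525372-8986648 on the plus strand of GRCm38, with 12849 exon bases in 33 blocks. Between the libraries, 94.3% of detected genes differed by at least as large a ratio as Pde10a, whose log2 ratio of replicate 2 over replicate 1 was -0.05. With the trend of that ratio on exon length removed it was -0.35.

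The next member per kilobase was Pde1a, a calcium- and calmodulin-stimulated enzyme, at 82.4 RPKM in replicate 1 and 121 RPKM in replicate 2 (mean 102 ± 27.1, SD, n = 2). The log2 lead of Pde10a over it in RPKM was 0.90 in replicate 1 and 0.28 in replicate 2, a mean of 0.59 ± 0.44. Its paralogue Pde1b, the PDE1 form known for its high expression in striatum, stood at 89.1 and 73.7 RPKM (mean 81.4 ± 10.9). The order of Pde1a and Pde1b differed between the libraries: Pde1b was the higher in replicate 1 and Pde1a in replicate 2. The third paralogue, Pde1c, was far lower per kilobase, at 12.01 and 14.002 RPKM (mean 13.0 ± 1.41), although its 20067 annotated exon bases gave it 261 ± 28.3 CPM. The genes lie apart in GRCm38, Pde1a at chr2:79834453-80129458 (minus strand), Pde1b at chr15:103503034-103530052 (plus) and Pde1c at chr6:56069804-56569103 (minus). In CPM, Pde1a had 495 and 726, Pde1b 481 and 398, and Pde1c 241 and 281 in replicates 1 and 2.

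Pde2a, the cGMP-stimulated enzyme through which cGMP can lower cAMP, stood at 425 and 372 CPM, or 69.1 and 60.5 RPKM (mean 64.8 ± 6.09, SD, n = 2). The gene spans chr7:101421691-101512827 on the plus strand. Of its exon bases, 64.3% are also annotated to Gm45837 on the same strand, so counting against an annotation with both genes could have set reads aside as ambiguous. Gm45837 was not analysed here. Of the other members, 8 share no exon base with another gene, and Pde8b shares 7.60% with Gm48420 on the opposite strand.

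Among the cAMP-specific members, Pde4b, a member of the rolipram-sensitive PDE4 subfamily, was highest per kilobase, at 75.0 and 51.7 RPKM (mean 63.3 ± 16.5, SD, n = 2). In CPM it had 792 in replicate 1 and 546 in replicate 2. Pde8b, a high-affinity cAMP enzyme, stood at 53.7 and 39.2 RPKM (316 and 230 CPM), and Pde7b, a cAMP enzyme insensitive to rolipram that is known to be expressed in striatum, at 44.7 and 37.97 RPKM (557 and 473 CPM). All of these cAMP-specific genes were higher in replicate 1. The remaining PDE4 members had the lowest mean RPKM of the 10, with Pde1c close above: Pde4d at 10.8 and 14.1 RPKM (130 and 170 CPM) and Pde4a at 10.96 and 12.3 RPKM (83.9 and 94.5 CPM), both higher in replicate 2. Pde4a lies at chr9:21165714-21213248, Pde4b at chr4:102087543-102607259 and Pde4d at chr13:108449948-109953461 on the plus strand, and Pde7b at chr10:20398004-20725078 and Pde8b at chr13:95024454-95250336 on the minus strand. Isoforms of these genes, of which PDE4 genes have many, cannot be told apart in counts per symbol.

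**Figure D1:**
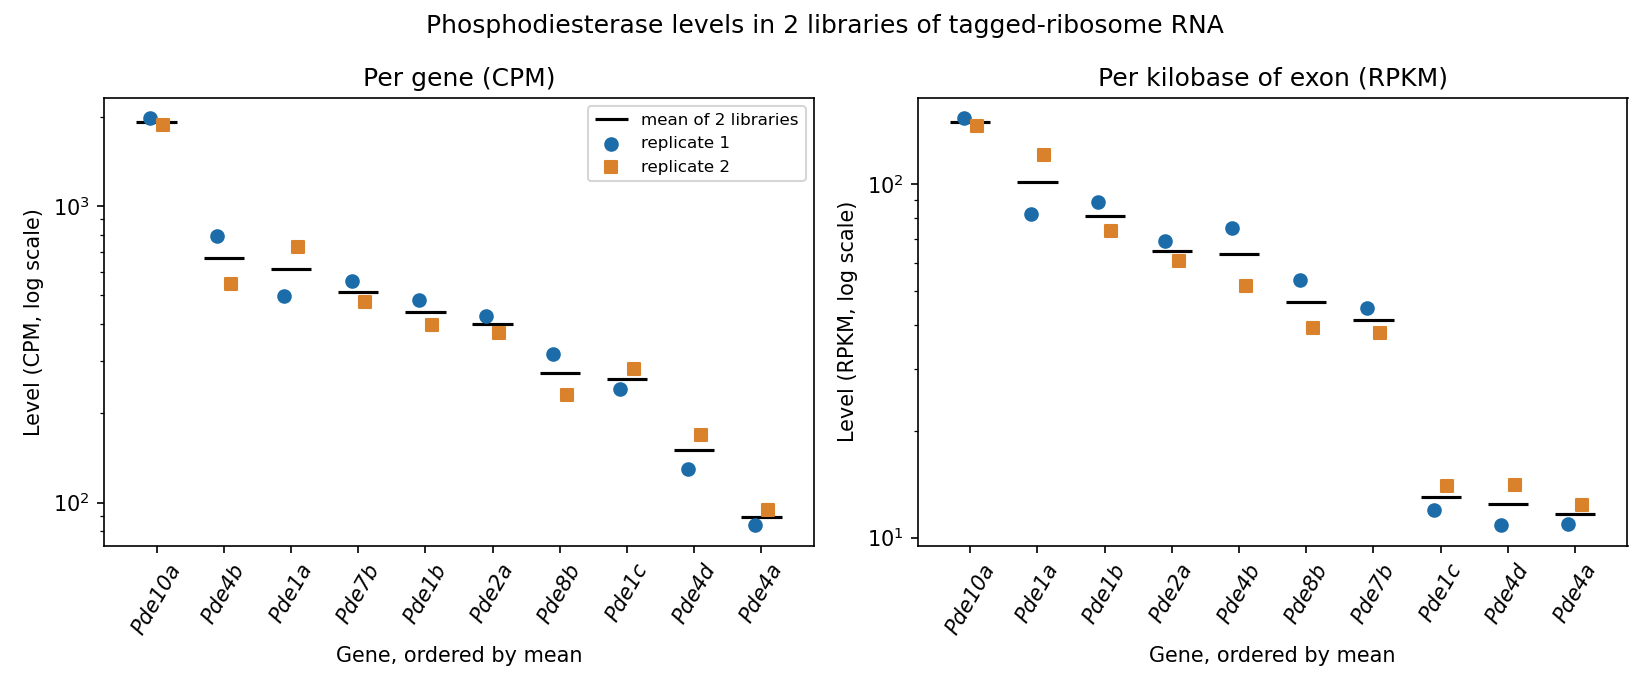
Level of the 10 phosphodiesterase genes in replicate 1 (circles) and replicate 2 (squares), with the mean as a line, in CPM (left) and RPKM (right), both on log axes. Pde10a is highest on both scales (1925 CPM, 150 RPKM), Pde1a, Pde1b, Pde2a, Pde4b, Pde8b and Pde7b form a middle range, and Pde1c, Pde4d and Pde4a lie between 10.8 and 14.1 RPKM.

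The order of mean RPKM was Pde10a, Pde1a, Pde1b, Pde2a, Pde4b, Pde8b, Pde7b, Pde1c, Pde4d, Pde4a, over a 12.9-fold range. Neighbours in this order were taken to differ beyond their spread where the log2 difference had the same sign in both libraries and its mean exceeded its SD, a description over 2 libraries and not a test. By that measure 4 of 9 neighbouring pairs differed: Pde10a over Pde1a, Pde1b over Pde2a (0.33 ± 0.06), Pde4b over Pde8b (0.44 ± 0.06) and Pde7b over Pde1c, the widest step at 1.67 ± 0.32 log2 RPKM (n = 2). The pairs Pde1a and Pde1b, Pde2a and Pde4b, Pde8b and Pde7b, Pde1c and Pde4d, and Pde4d and Pde4a did not. The order rests on the length used. Per kilobase of the longest coding transcript, a length chosen after the data were seen, Pde10a stayed highest and Pde4b came next in place of Pde1a, 0.70 ± 0.33 log2 units below Pde10a, though Pde1a was above Pde4b in replicate 2. Pde7b, below Pde2a and Pde8b in mean RPKM, was above both on that scale. It lay 0.40 ± 0.03 log2 units above Pde2a. Against Pde8b it had 135 and 114 CPM per kilobase to 74.5 and 54.4 in replicates 1 and 2. There 7 of 9 neighbouring pairs differed beyond their spread. Pde1c, Pde4d and Pde4a were the lowest 3 on that scale too.

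The 10 members held 98.2% of the reads of all 24 phosphodiesterase genes in replicate 1 (Clopper-Pearson 95% interval 98.1 to 98.3) and 97.9% in replicate 2 (97.8 to 98.0). The members were chosen with earlier results of these data known, so this share cannot be read apart from that choice. The intervals given here cover counting error only. Pde10a alone took 35.3% (35.0 to 35.5) and 35.6% (35.3 to 35.8), a mean of 35.4% ± 0.217 (SD, n = 2). Per kilobase of exon, its share was 24.4% in each library. On that scale the 3 PDE1 genes together, at 29.1% and 34.8%, held more than Pde10a in both libraries. The PDE4 genes held 15.4% and 13.0%, Pde2a 10.97% and 10.1%, the PDE8 genes 8.85% and 7.65%, and the PDE7 genes 7.67% and 6.69%. The order of the last 3 rests on the length used. Per kilobase of the longest coding transcript the PDE7 genes held 12.2% and 11.1%. Pde2a then held 8.87% and 8.36% and the PDE8 genes 6.76% and 5.82%.

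**Figure D2:**
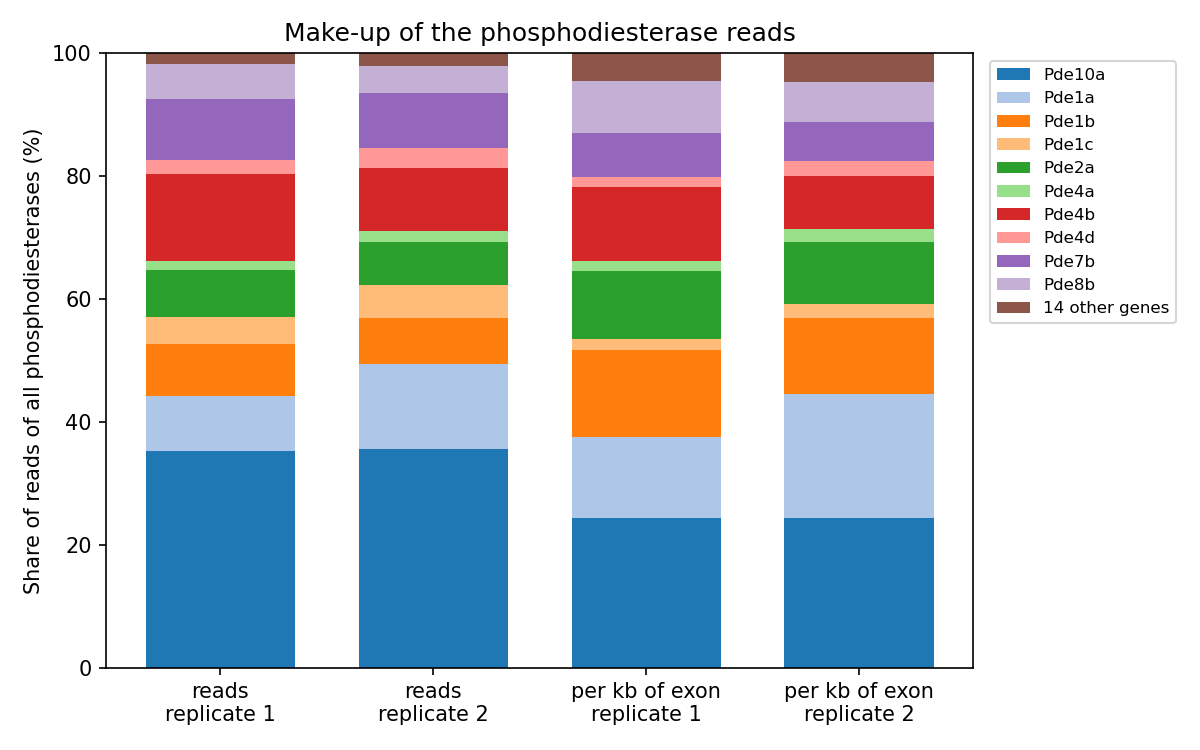
Stacked bars of the share (%) of each member, and of the 14 other phosphodiesterase genes together, in the reads of all 24 genes, from reads (left pair) and from reads per kilobase of exon (right pair), for replicates 1 and 2. The Pde10a share is nearly equal in both libraries on each scale (35.3% and 35.6% of reads, 24.4% per kilobase), while the Pde1a share of reads is 8.85% in replicate 1 and 13.7% in replicate 2.

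By substrate, genes of the dual-specificity families (PDE1, PDE2, PDE3, PDE10, PDE11) held 64.9% and 69.7% of all phosphodiesterase reads and those of the cAMP-specific families (PDE4, PDE7, PDE8) 34.2% and 29.5%. The cGMP-specific families (PDE5, PDE6, PDE9) held 0.897% and 0.862% of reads, and 3.34% and 2.90% per kilobase of exon. Most of these cGMP-specific reads came from Pde6d, which encodes a prenyl-binding protein and no enzyme. Without it and the inhibitory subunit genes Pde6g and Pde6h, the cGMP-specific share was 0.199% and 0.322%.

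In the PDE4, PDE7 and PDE8 subfamilies a single gene held most reads in both libraries. Pde4b had 78.7% of PDE4 reads in replicate 1 (Clopper-Pearson 95% interval 78.2 to 79.2) and 67.4% in replicate 2 (66.8 to 68.0), a mean of 73.1% ± 8.01 (SD, n = 2). Pde4d had 12.9% and 20.9%, Pde4a 8.34% and 11.7%, and Pde4c 0 reads in both libraries, where the limit that 3 reads would set is 0.116 CPM (replicate 1) or 0.101 CPM (replicate 2). Pde7b had 96.0% ± 1.04 of PDE7 reads and Pde8b 93.5% ± 5.54 of PDE8 reads, against Pde7a and Pde8a. In PDE1, Pde1a had 40.7% and 51.7% of reads and Pde1b 39.5% and 28.3%, while the Pde1c share was 19.8% and 20.005%. Per kilobase of exon the leading gene was the same in PDE4, PDE7 and PDE8 in both libraries, and in PDE1 it was Pde1b in replicate 1 (48.6%) and Pde1a in replicate 2 (57.9%). In PDE3, which holds no member, the gene with more reads differed between the libraries. Pde3b had 282 reads and Pde3a 66 in replicate 1, and 268 and 363 in replicate 2. Per kilobase of exon Pde3b was the higher in both libraries, at 1.20 and 0.994 RPKM against 0.201 and 0.964 RPKM for Pde3a.

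Of the 14 other phosphodiesterase genes 7 were detected, none above 40 CPM in either library. Pde6d stood at 39.1 and 28.4 CPM in replicates 1 and 2, and Pde7a, a cAMP-specific enzyme, at 27.6 and 15.9 CPM. Pde8a, the paralogue of Pde8b, stood at 8.36 and 26.8 CPM, Pde9a, a high-affinity cGMP enzyme, at 10.8 and 13.9 CPM, and Pde3b, of the cGMP-inhibited PDE3 subfamily, at 10.9 and 9.06 CPM. Its paralogue Pde3a stood at 2.56 and 12.3 CPM and the dual-substrate Pde11a at 2.01 and 2.03 CPM. In RPKM all 7 were below Pde7b and 6 of them, all but Pde6d at 15.5 ± 3.48, were below the lowest member, Pde4a. Of the undetected genes, Pde5a, the target of sildenafil, had 6 reads in replicate 1 and 77 in replicate 2, and the PDE6 genes of photoreceptors other than Pde6d had at most 8 reads.

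The reads of each gene were then compared between the libraries by an exact two-sided binomial test after TMM scaling (edgeR's trimmed-mean correction of library size). This compares 1 library with 1 library, not conditions, and its p-values cover counting error only, with reads taken as independent molecules. A gene was called at a Benjamini-Hochberg adjusted p below 0.05 over all 12374 genes and at least a 2-fold ratio. By this rule 0 of the 10 members were called, where 17.3% of all detected genes were. Of all detected genes, 9.52% were called with the higher level in replicate 2 and 7.76% with the lower. At any ratio, all 10 members passed the adjusted p (and the unadjusted p). So did 78.9% of all detected genes at the adjusted p and 9881 of 12374 at the unadjusted p. With DESeq2 size factors also 0 members were called, against 17.3% of all detected genes.

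The log2 ratios of replicate 2 over replicate 1 ran from -0.51 for Pde4b to 0.58 for Pde1a, a 1.49-fold higher level in replicate 2 (adjusted p = 1.06e-286, exact binomial test). Of the members, 4 had a ratio above 0 (Pde1a, Pde4d at 0.41, Pde1c at 0.25, Pde4a at 0.20) and 6 below (Pde10a at -0.05, Pde2a at -0.17, Pde7b at -0.21, Pde1b at -0.25, Pde8b at -0.43, Pde4b). The median over the members was -0.11 and over all detected genes -0.00254. Of the 10, 8 had a smaller ratio in size than the median gene, at 0.445. The members had a median level of 419 CPM, against 23.1 CPM for all detected genes. Neither the ratios nor the share called were compared at matched level. Genes of a single subfamily went opposite ways: Pde1b lay below 0 and Pde1a and Pde1c above, and Pde4b lay below 0 and Pde4a and Pde4d above. With the trend of the ratio on exon length removed, Pde1c stood at -0.21, so its direction rests on that choice. The other members kept their direction, with values from -0.76 for Pde4b to 0.48 for Pde1a. Those of Pde2a (-0.27), Pde7b (-0.51), Pde4a (0.05) and Pde4d (0.12) moved by over 1.5 times, as did that of Pde10a.

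Of the 7 detected other phosphodiesterases, 2 were called, both as higher in replicate 2, against 9.52% of all detected genes called that way. They were Pde3a at a log2 ratio of 2.28 (adjusted p = 1.06e-42) and Pde8a at 1.70 (adjusted p = 7.50e-63, exact binomial tests). Both are low in reads, 66 and 363 reads for Pde3a and 216 and 792 for Pde8a, and 5.82% of Pde3a exon bases are also annotated to Gm28523 on the opposite strand. In the same direction, 7 of 10 astrocyte markers were called with a list median of 1.59, and 3 of 10 oligodendrocyte markers with a median of 0.74. List medians were also above 0 for oligodendrocyte precursors (0.78), glutamatergic neurons (0.84), cholinergic interneurons (0.60) and GABA interneurons (0.52). They were below 0 for microglia (-0.44) and for endothelial and mural cells (-0.23). The part of any of these cell types in the Pde3a and Pde8a values was not tested. Spiny neuron markers had a median of -0.37, with 11 of 13 below 0. Of them 1 was called, Tac1, as higher in replicate 1, as were 7.76% of all detected genes. Pde7a stood at -0.77, the lowest ratio of any detected phosphodiesterase, and was not called.

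**Figure D3:**
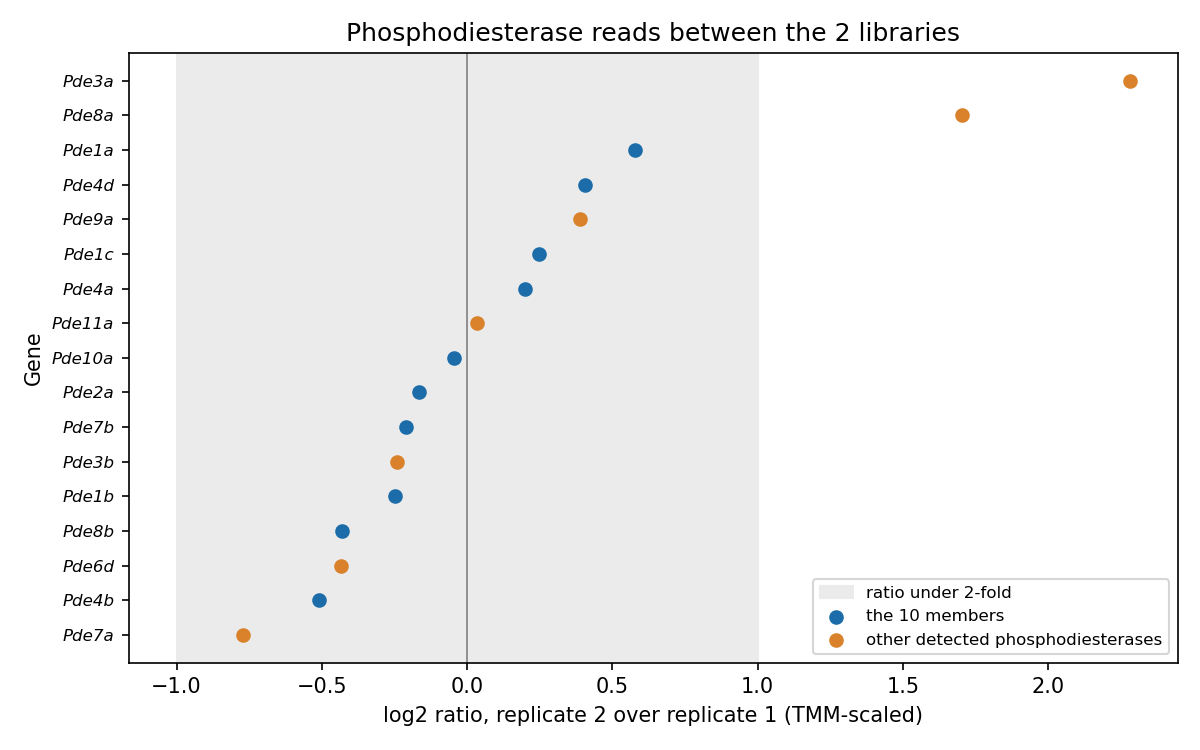
Log2 ratio of replicate 2 over replicate 1 (x axis, TMM-scaled) for the 17 detected phosphodiesterase genes (y axis), members in blue and others in orange, with the band under a 2-fold ratio in grey. All 10 members lie between -0.51 and 0.58, and Pde8a (1.70) and Pde3a (2.28) lie outside the band.

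The other genes of cyclic nucleotide signalling give the scale of the phosphodiesterase levels. The RPKM of the 10 members summed to 601 and 570 in replicates 1 and 2, and that of the 14 other phosphodiesterases to 28.5 and 28.4. The 10 adenylyl cyclase genes, which make cAMP, summed to 86.7 and 90.9 RPKM. Of these 8 were detected. The highest was Adcy5 at 44.0 ± 0.383 RPKM, the main striatal form, with Adcy9 at 22.7 ± 1.27, Adcy1 at 6.73 ± 2.38 and Adcy2 at 9.93 ± 0.451 RPKM (SD, n = 2). Adcy4, not detected, had the lowest mean CPM of the list, 0.143. Pde10a alone exceeded their sum in each library. Of the 11 genes for cGMP or nitric oxide synthesis 5 were detected, with the soluble guanylyl cyclase subunit genes Gucy1b3 at 76.3 ± 6.88, Gucy1a3 at 69.8 ± 1.37 and Gucy1a2 at 39.2 ± 7.17 RPKM, the nitric oxide synthase gene Nos1 at 2.14 ± 0.528 RPKM and Gucy2d at 0 reads. In both of these lists 0 genes were called between the libraries, against 17.3% of all detected genes. An unadjusted p below 0.05 in the exact binomial test was reached by 4 of 8 and 5 of 5, and by 9881 of all 12374 detected genes.

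All 8 genes of the cAMP- and cGMP-dependent kinases were detected, and their RPKM summed to 614 and 568, near the sum over the members. Of them 0 were called, against 17.3% of all detected genes. At an unadjusted p below 0.05 (exact binomial test) there were 7, against 9881 of all 12374 detected genes. The catalytic subunit gene Prkacb stood at 146 ± 8.17 RPKM and the regulatory subunit genes Prkar1a, Prkar2b and Prkar1b at 181 ± 1.08, 98.6 ± 22.5 and 58.6 ± 0.608 RPKM (SD, n = 2), with the cGMP-dependent Prkg2 lowest at 2.42 ± 0.872. Among 15 other effectors, 7 were detected, led by the exchange factor gene Rapgef4 at 30.6 ± 3.98 RPKM, and Cnga1 and Popdc3 had 0 reads. In this list 2 of 7 detected genes were called with the higher level in replicate 2, against 9.52% of all detected genes: Rapgef3 at a log2 ratio of 1.03 and Hcn2 at 1.29, at means of 5.31 ± 2.53 and 5.07 ± 2.96 CPM. With the exon length trend removed Rapgef3 was at 0.93 and no longer called. Hcn3, at 5.09 ± 1.07 CPM, was not called.

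Of 16 anchors and binding partners of phosphodiesterases and protein kinase A, 15 were detected and 0 called, against 17.3% of all detected genes. At an unadjusted p below 0.05 (exact binomial test) there were 13, against 9881 of all 12374 detected genes. The postsynaptic anchor gene Akap5 stood at 201 ± 22.0 RPKM, Akap11 at 87.4 ± 24.3, Akap9 at 62.8 ± 10.6 and Akap6 at 43.1 ± 9.25 RPKM (SD, n = 2), while Disc1, which encodes a PDE4-binding protein, was at 0.0774 and 0.744 CPM. Calmodulin, the activator of PDE1, was represented by Calm2 at 1480 ± 725 and Calm3 at 242 ± 94.6 RPKM (SD, n = 2). Both had a ratio below 0, and Calm2 was called as higher in replicate 1 at a log2 ratio of -1.02. With the exon length trend removed its ratio was -0.57 and it was no longer called.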

How the data were processed

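Raw read counts per gene symbol were deposited for 2 libraries. Per the submitters' processing notes, STAR 2.0.0e and HTSeq were used with build mm10. Annotation and strand setting: not given in the sources used here. Thus reads of overlapping genes cannot be told apart. Left out were 6 lines without a gene, such as non-unique reads, with 52.5% and 46.6% of all counted reads in replicates 1 and 2. The libraries differed in their make-up: non-unique reads were 27.9% and 13.6%, and reads assigned to no feature 22.8% and 31.0%. The effect of this difference on the ratios between the libraries was not tested. Reads of Rn45s made up 6.89% and 6.21% of those in genes.

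Counts were scaled to CPM over named genes. A gene counted as detected where each library gave it at least 1 CPM. Exon lengths and positions came from GENCODE M21 (GRCm38), matched by symbol. Of the detected genes, 11468 had a length. Binomial tests used TMM factors from edgeR 4.0.16, and 0.5 reads were added for log2 ratios. The test was checked on simulated counts with Poisson error only. That check cannot show how the test behaves where libraries differ beyond counting error. With 1 group of 2 libraries there was no comparison of conditions. CPM intervals are exact Poisson, at 95%. Floors are 3 reads per library. Alternatives included size factors from DESeq2 1.42.0, other filters, folds and lengths.

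The members and gene lists were chosen with earlier results of these data known. The text names all members, the detected other phosphodiesterases, the up to 4 highest genes by CPM, the lowest and all called genes of each pathway list, and the 2 highest of each marker list. The undetected phosphodiesterases, Cnga1, Vip, Emx1 and Tac1 fall outside this rule and were named after their values were seen. A few genes that the rule names are not reported here. No pattern likeness was ranked, since 2 libraries give none. Promoter motifs were chosen after the levels were known.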

Additional observations from a re-analysis of the deposited data

How the results depend on the processing

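No paired analysis was possible because there is only 1 group. The count of members called between the libraries was 0 under every alternative run: other scaling, filters, a 1.5-fold threshold and removal of the exon length trend. Other scaling moved all log2 ratios by a common small amount (Pde1a from 0.577 to 0.551 or 0.580), and filters left them unchanged. Those runs could therefore hardly alter the count. At the 1.5-fold threshold, Pde1a fell just short at 1.49-fold. Of 30 alternative log2 ratios of members, 29 kept their direction, including those from other scaling. Pde1c turned to -0.21 with the length trend removed. Among the other phosphodiesterases Pde11a turned to -0.028 under that setting. A 1.5-fold threshold added 1 call as higher in replicate 1 to them, where 38.2% of all genes were called in either direction. With no filter 3 of them instead of 2 were called as higher in replicate 2, where 30.5% of all genes were called in either direction. Over all pathway lists outside the members, 5 of 53 tested genes were called (9.43%, against 17.3% of all genes), 4 as higher in replicate 2. The total was 14 of 71 with no filter (12 and 2 as higher in replicates 2 and 1, against 30.5% of all genes), 16 of 53 at 1.5-fold (12 and 4, against 38.2%), and 3 of 50 with the length trend removed (0 as higher in replicate 1, against 14.6%), where Rapgef3 (0.93) and Calm2 (-0.57) were lost. More genes are tested without the filter and more ratios pass a lower threshold by construction. For the length trend, the cause was not tested.

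Without Rn45s in the denominator, Pde10a stood at 2060.2 CPM and the members summed to 5704 CPM. The log2 lead of Pde10a over the next member was 1.55 ± 0.33 (SD, n = 2) in CPM, 0.59 per kilobase of exon and 0.70 per kilobase of the longest coding transcript. Its share of phosphodiesterase reads was 24.4% and 22.6% on those scales, 36.1% of the members alone and 35.6% without Pde6d, Pde6g and Pde6h. The Pde7b share of its subfamily was 93.7% and 97.3% on those length scales. The cGMP-specific share was 3.12% and 3.22%, and 0.260% without the noncatalytic genes. Per kilobase of the longest coding transcript, the cAMP-specific share was 37.1% and the dual share 59.7%. The alternatives with the longest transcript and without those genes were chosen after seeing the data. Leaving out a replicate gave a lead of 1.32 or 1.78 and a Pde10a share of 35.3% or 35.6%. Each SD rests on 2 libraries.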
